A study of Mus musculus with 10 samples.

Results

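The integrin and laminin subunit genes were followed in MC3T3-E1 cells, an osteoblast precursor line from the skull of newborn mice, cultured with β-ecdysterone, a plant sterol. Members were chosen by symbol alone: rows whose gene name begins with Itga or Itgb (without binding protein genes and Itgbl1), or with Lama, Lamb or Lamc and a number. The rule found 38 of 29583 rows, 27 integrin and 11 laminin genes. The mRNA of 10 libraries was sequenced. Of these, 6 were treated libraries (100, 150 and 200 μM on day 5 and on day 10, 1 library each) and 2 were kept at 0 μM (1 on day 5 and 1 on day 10). The other 2 (A-5 and B-4) carry the label untreated with no time, and were left out of the main tests. The cells at 0 μM and the treated cells were grown in standard medium; the medium of the untreated ones is not given in the sources used here. The titles name MC3T3-E1 while the source field of the same samples names mesenchymal stem cells of bone marrow; the strain is given as C57BL/6 and the age as newborn for all. Because no condition was sequenced more than once, doses and days served as replicates, and p-values measure the spread between these libraries, with no label showing that they came from separate cultures.

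Integrins are receptors made of an alpha and a beta chain, which together hold a cell to its matrix and link that matrix to actin inside the cell. The alpha chain largely sets the ligand: one set binds collagens, one binds laminins, one binds the RGD motif of fibronectin, vitronectin and nephronectin, and others are used by leukocytes. The beta 1 chain pairs with most of these alpha chains. Laminins are secreted trimers of an alpha, a beta and a gamma chain and form the sheet of basement membranes, while osteoblasts otherwise lie on a matrix rich in type I collagen.

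The sequences in front of the start of 3 genes are shown. Itga10 and Itga8 were higher, with the smallest adjusted p of all members in the edgeR test against 0 μM below. Itgb5, shown beside them, was lower within the fold limit. The 3 sequences are the 250 bases before the annotated start (RefSeq, GRCm38.p6), 5′ to 3′ on the gene's own strand, with matches to the searched motifs in capitals. Itgb5 was chosen for this comparison after its values were seen. Itga10 (chr3:96645334-96645583, plus strand) and Itga8 (chr2:12301945-12302194, minus strand) had no match, and Itgb5 (chr16:33829415-33829664, plus strand) had 3 GC boxes, starting 199, 63 and 34 bases before the start.
Itga10: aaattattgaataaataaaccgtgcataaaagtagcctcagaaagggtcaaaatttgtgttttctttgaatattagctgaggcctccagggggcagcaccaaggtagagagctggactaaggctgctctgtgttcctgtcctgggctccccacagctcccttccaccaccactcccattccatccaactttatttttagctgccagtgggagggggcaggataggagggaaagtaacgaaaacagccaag
Itga8: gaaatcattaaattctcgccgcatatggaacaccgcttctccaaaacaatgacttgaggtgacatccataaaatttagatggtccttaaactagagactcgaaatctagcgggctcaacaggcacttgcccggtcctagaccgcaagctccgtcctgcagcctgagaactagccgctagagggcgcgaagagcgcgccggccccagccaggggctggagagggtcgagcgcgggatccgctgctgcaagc
Itgb5: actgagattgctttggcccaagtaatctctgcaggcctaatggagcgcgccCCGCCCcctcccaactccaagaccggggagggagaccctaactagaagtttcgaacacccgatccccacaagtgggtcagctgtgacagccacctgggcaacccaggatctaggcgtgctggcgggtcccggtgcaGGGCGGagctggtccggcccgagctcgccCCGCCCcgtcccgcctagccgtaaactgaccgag
The motifs searched on both strands were the AP-1 site TGANTCA, the RUNX core TGTGGT and the GC box GGGCGG; none contains another. Over all 32851 promoters of the same length, 6.75% held an AP-1 match, 14.0% a RUNX match and 32.7% a GC box. The GC content was 48.0% for Itga10, 56.4% for Itga8 and 65.2% for Itgb5. A match or its absence describes only these letters in this window. Promoters were found for 24 of the 38 members, and 8 of these 24 (33.3%) held a GC box, near the share over all promoters. Of the other lower members, Itgb7 and Itgav had 0 GC boxes, Lamb1 had 2, and Itga3 had 1 and 3 in separate promoters. The higher members Itga1, Itga9 and Lama2 had 0. Itgb1, Itga5 and Lama5, none of them called, had 1, 2 and 4. Itga2, Itga2b, Itga11, Itgb6, Itgb8, Lamb2 and Lamb3, also not called, had 0.

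The 8 libraries of the comparisons held 27108562 to 58218009 counts, so that 3 counts, the most that a count of 0 allows, correspond to 0.051 to 0.12 CPM (the count relative to library size, after TMM scaling), and the untreated libraries held 28772087 and 29789271. These limits cover counting error only. Osteoblast markers were present: of 12 tested, 5 were called higher in treated cells, among them Runx2 and Sp7, the transcription factors that commit cells to bone. Some markers of other cell types were also present and some were called higher. Of 10 macrophage and leukocyte markers 5 were tested, with Lyz2 and Mrc1 higher and Cd14 lower. Their sum was 27.3 and 39.7 CPM at 0 μM and 36.5 to 68.7 CPM in treated cells, mostly from Lyz2 (a mean of 21.5 CPM at 0 μM and 47.0 CPM in treated cells), while the pan-leukocyte marker Ptprc was at 0 counts at 0 μM and at most 12 counts in treated cells. Of 6 endothelial markers 5 were tested and Cdh5, Tek and Vwf were higher, at a sum of 1.88 and 1.92 CPM at 0 μM and 5.53 to 8.37 CPM in treated cells; Kdr was at 0 at 0 μM, and Pecam1 had a mean of 0.421 CPM. Of 6 chondrocyte markers 5 were tested and Comp was called higher, at a sum of 90.3 and 102.8 CPM at 0 μM and 88.4 to 170.5 CPM in treated cells. Of 8 muscle markers 5 were tested and Des and Ckm were higher, with Myod1 and Myf5 at 0 at 0 μM. Of 6 epithelial markers 2 were tested and 1 was higher, and of 6 adipocyte markers 5 were tested and 1 was higher. The part of these cells in the results below was not tested, and in bulk RNA a change in the number of cells of a type cannot be told from a change in RNA per cell. The untreated library B-4 lay within the range of the treated libraries for several members named below and A-5 mostly did not, so both are given beside the results.

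To determine which subunits differed between treated cells and cells at 0 μM, edgeR's quasi-likelihood test was run on the counts of the 6 treated libraries and the 2 at 0 μM. Day entered as a covariate, and p-values were adjusted over all genes (Benjamini-Hochberg). Called here means an adjusted p under 0.05 with a log2 fold change of more than 1 in size. Of the 38 members 33 passed the filter on low counts. Called higher were 6 members (18.2% of those tested): the integrin alpha chains Itga10, Itga8, Itga9 and Itga1 and the laminin chains Lama2 and Lamc3. Called lower were 3 (9.09%): the integrin chains Itga6, Itgb7 and Itgb3. Over all genes tested, 13.4% were called higher and 5.98% lower, so the members' shares were near the background. At an adjusted p under 0.05 and any fold, the same number of 6 members were higher, against 22.6% of all genes, and 9 were lower (27.3%), against 20.8% of all genes. The additional lower members, all within the fold limit, included Itga3, Itgav, Itgb5, Lamb1 and Lamc1. The median log2 fold change was -0.05 over the tested members and 0.05 over all genes.

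**Figure D1:**
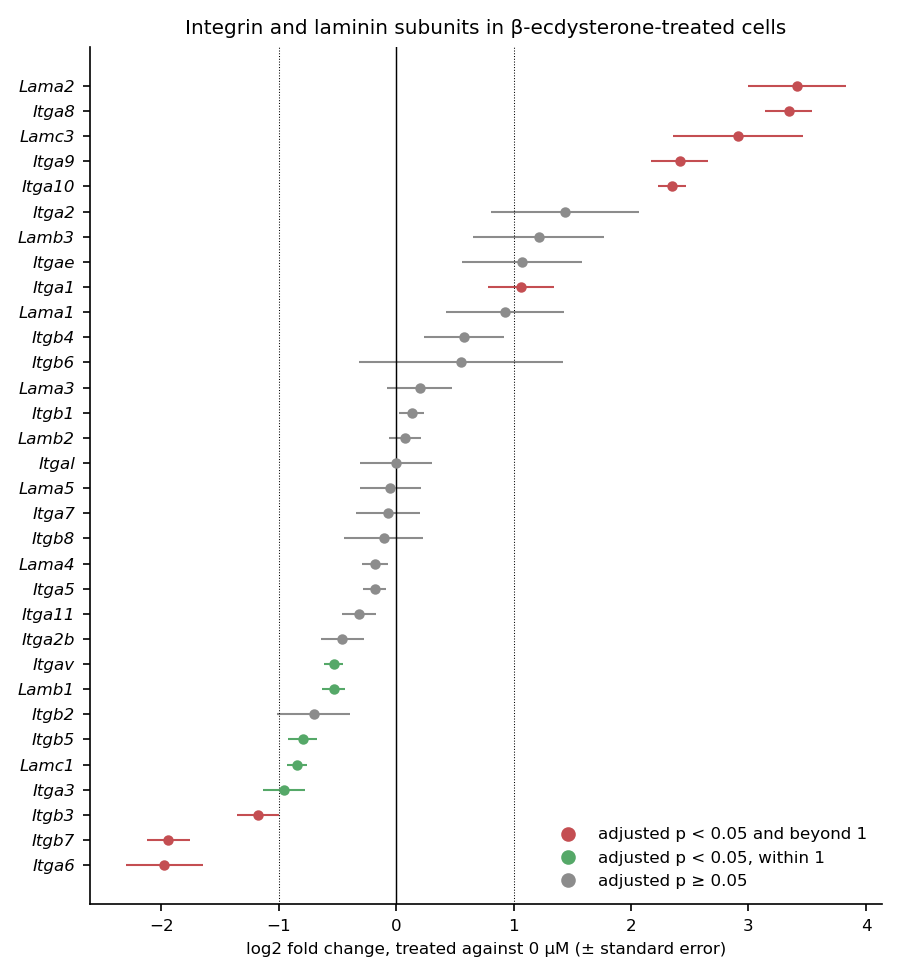
Log2 fold change of 32 of the 33 tested members in treated cells against 0 μM (x axis) with its standard error as a bar, ordered by size; dotted lines mark 1 and -1 and colours mark the test. Itga8 and Lama2 lie above 3, most members lie within 1 of 0, and Itga6 and Itgb7 lie lowest.

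Itga10, a collagen-binding alpha chain known best from cartilage, had the highest FPKM of all alpha chains in treated cells. It stood at 170.2 and 169 CPM at 0 μM on days 5 and 10. In treated cells it was 895, 772 and 855 CPM at 100, 150 and 200 μM on day 5, and 984, 953 and 941 CPM on day 10. Every treated library was above both at 0 μM, at a 5.09-fold difference (log2 fold change 2.35 ± 0.12 SE, edgeR adjusted p = 1.45e-06). The 6 libraries differed from the 0 μM library of their day by 2.18 to 2.54 on the log2 scale, the narrowest range among the called members. The gene lies on chromosome 3 (96645584 to 96664519, GENCODE M21, GRCm38) and shares 1739 of its exonic bases (33.5%) with Gm42957 on the same strand. That gene had 376 and 377 counts at 0 μM and 523 to 1502 in treated cells, against 5453 to 50131 for Itga10 over the same libraries. The untreated libraries split: A-5 had 362 CPM and B-4 had 874 CPM, within the treated range. Of the chondrocyte markers, Comp (log2 fold change 1.87, edgeR adjusted p = 1.8e-04) and, within the fold limit, Sox9 (0.96, adjusted p = 0.0012) were higher in the same treated cells. The other tested ones, Col2a1 (-0.32, adjusted p = 0.541), Matn3 (-0.71, adjusted p = 0.183) and Col9a1 (5.77, adjusted p = 0.088), did not pass. The part of these markers' cells in the level of Itga10 was not tested. With A-5 and B-4 as the controls the log2 fold change of Itga10 was 0.51 and was not called (adjusted p = 0.227), and with them added to 0 μM it was 1.16 (adjusted p = 0.0604).

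The other 3 collagen-binding alpha chains did not move alike. Itga1, whose product binds collagens IV and I, stood at 13.7 and 26.0 CPM at 0 μM. Treated libraries held 58.7, 33.8 and 47.6 CPM on day 5 at 100, 150 and 200 μM and 42.4, 39.7 and 34.6 CPM on day 10. All lay above both 0 μM libraries (log2 fold change 1.06 ± 0.28 SE, edgeR adjusted p = 0.012), which themselves differed between days by 0.93 on the log2 scale. The call rested on single libraries: without the 0 μM library of day 5 the log2 fold change was 0.52 (adjusted p = 0.166), and leaving out the 100 μM library of that day gave 0.96, inside the fold limit. In the untreated libraries Itga1 was lower than in all others, at 4.63 and 6.40 CPM. Itga11, a receptor for fibrillar collagen in mesenchymal cells, had 205 and 225 CPM at 0 μM and 132 to 209.5 CPM in treated cells, with overlapping groups (log2 fold change -0.31, adjusted p = 0.103). Itga2 was scarce, at 0.518 and 0.278 CPM at 0 μM and 0.399 to 2.91 CPM in treated cells, and was not called by edgeR (log2 fold change 1.44, adjusted p = 0.091). It was called higher by DESeq2, with depth class as a covariate and without the 0 μM library of day 5. Its treated levels moved with depth: the 3 libraries above 40000000 counts averaged 2.78 times the 3 below.

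Among the RGD-binding alpha chains, Itga8 was called higher, and Itgav was lower within the fold limit. Itga8, which pairs with beta 1 and binds nephronectin, stood at 6.999 and 7.98 CPM at 0 μM. It was 51.9, 74.4 and 56.0 CPM on day 5 and 92.7, 115 and 106 CPM on day 10 at 100, 150 and 200 μM, every value above both at 0 μM. The difference was 10.1-fold (log2 fold change 3.34 ± 0.20 SE, edgeR adjusted p = 3.5e-06). The untreated libraries, at 18.5 and 15.9 CPM, lay between the groups. Itga8 (chromosome 2, 12106632 to 12301922) overlaps 372 exonic bases of an antisense gene, E030013I19Rik, and whether the counting used strand is not given in the sources used here. Itgav, the partner of several beta chains that binds vitronectin, was 248 and 236 CPM at 0 μM and 164 to 184 CPM in treated cells, with no overlap (log2 fold change -0.53 ± 0.08 SE, edgeR adjusted p = 6.5e-04). Itga5, the fibronectin receptor chain, was 171 and 175 CPM at 0 μM and 143 to 173 CPM in treated cells and did not pass (log2 fold change -0.18, adjusted p = 0.159). Itga2b, the platelet chain, had 7.29 and 8.47 CPM at 0 μM and 4.52 to 7.37 CPM in treated cells (log2 fold change -0.46, adjusted p = 0.069).

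Itga9, whose product binds tenascin-C and VCAM-1, stood at 4.58 and 3.96 CPM at 0 μM. Treated libraries held 16.8, 18.7 and 19.1 CPM on day 5 and 27.98, 37.9 and 33.6 CPM on day 10 at 100, 150 and 200 μM. The groups did not overlap and differed 5.34-fold (log2 fold change 2.42 ± 0.24 SE, edgeR adjusted p = 5.5e-05). The untreated libraries held 7.77 and 8.41 CPM, under every treated library. Its relative Itga4 had at most 12 counts in any library and was not tested.

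**Figure D2:**
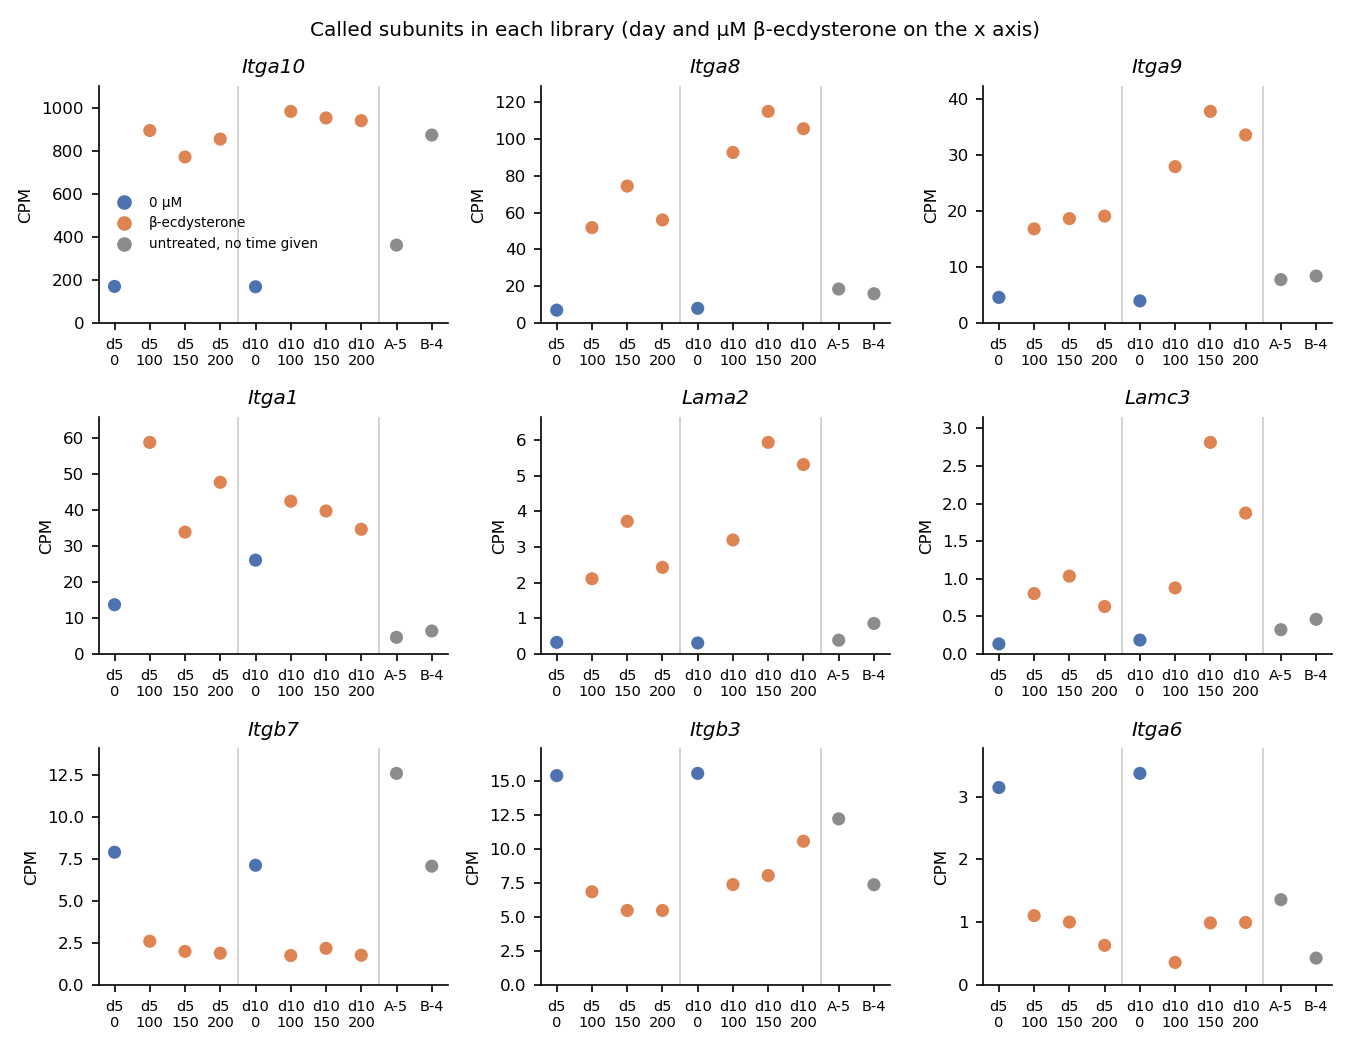
CPM (y axis, from 0) of the 9 called members in each library, with day and μM β-ecdysterone on the x axis; blue points are 0 μM, orange points treated and grey points the untreated libraries A-5 and B-4. The treated points lie above both blue points for Itga10, Itga8, Itga9, Itga1, Lama2 and Lamc3, and below them for Itgb7, Itgb3 and Itga6.

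Of the 3 laminin-binding alpha chains, 1 was called lower. Itga6, which pairs with beta 1 or beta 4, stood at 3.14 and 3.37 CPM at 0 μM. Treated libraries held 1.11, 1.002 and 0.632 CPM on day 5 and 0.360, 0.989 and 0.996 CPM on day 10 at 100, 150 and 200 μM. All 6 were below both at 0 μM (log2 fold change -1.97 ± 0.33 SE, edgeR adjusted p = 0.0011), on only 9 to 59 counts a library. The untreated libraries held 1.36 and 0.429 CPM, and with them in place of 0 μM the log2 fold change was -0.10 (adjusted p = 0.916). Itga3, another laminin receptor chain, went from 170.0 and 204 CPM at 0 μM to 77.7 to 126 CPM in treated cells, with no overlap. Its log2 fold change of -0.95 ± 0.18 SE (edgeR adjusted p = 0.0021) passed the p limit but not the fold limit. Itga7, a muscle receptor chain, had 1.53 and 2.66 CPM at 0 μM and 1.64 to 2.40 CPM in treated cells (log2 fold change -0.07, adjusted p = 0.854).

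Among the beta chains, Itgb1, the shared partner, had the highest FPKM and was not called. Its length-normalised level was 223 and 234 FPKM at 0 μM and 229 to 259 FPKM in treated cells. The log2 fold change was 0.13 ± 0.10 SE (edgeR adjusted p = 0.328), although by CPM each treated library was above both at 0 μM. Itgb5, which pairs with Itgav, was lower within the fold limit, at 417 and 441 CPM at 0 μM and 199 to 319 CPM in treated cells, with no overlap (log2 fold change -0.79 ± 0.12 SE, edgeR adjusted p = 6.6e-04). Itgb3, the other vitronectin receptor chain and the osteoclast and platelet beta chain, stood at 15.4 and 15.6 CPM at 0 μM. Treated libraries held 6.87, 5.49 and 5.49 CPM on day 5 and 7.39, 8.06 and 10.6 CPM on day 10 at 100, 150 and 200 μM (log2 fold change -1.18 ± 0.18 SE, edgeR adjusted p = 6.1e-04). All were under the 0 μM libraries. Without the 0 μM library of day 5 the log2 fold change was -0.90, inside the fold limit.

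Itgb4, Itgb6 and Itgb8 were not called. Itgb4, the hemidesmosome chain, had 2.11 and 1.27 CPM at 0 μM and 1.90 to 4.34 CPM in treated cells (log2 fold change 0.58, adjusted p = 0.198). Itgb8, which pairs with Itgav and binds latent TGF-beta, had 8.44 and 7.20 CPM at 0 μM and 3.58 to 12.4 CPM in treated cells (log2 fold change -0.11, adjusted p = 0.817). Itgb6, an epithelial chain, was near the limit of detection at a mean of 0.136 CPM at 0 μM and 0.196 CPM in treated cells.

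The leukocyte chains were scarce. Itgb7, the partner of Itga4 and Itgae in lymphocytes, was the only one of them called. It stood at 7.92 and 7.14 CPM at 0 μM and at 2.61, 2.005 and 1.90 CPM on day 5 and 1.76, 2.19 and 1.78 CPM on day 10 at 100, 150 and 200 μM. Every treated library was below both at 0 μM (log2 fold change -1.94 ± 0.18 SE, edgeR adjusted p = 4.0e-05). The untreated libraries, at 12.6 and 7.09 CPM, were also above all treated ones. Itgae was above both 0 μM libraries in all 6 treated ones and did not pass the test (log2 fold change 1.07, adjusted p = 0.115), at under 1 CPM throughout. Itgb2 had 2.55 and 2.72 CPM at 0 μM and 0.932 to 2.40 CPM in treated cells (log2 fold change -0.70, adjusted p = 0.093), and Itgal had a mean of 0.924 CPM at 0 μM and 0.952 CPM in treated cells. Itgam was counted 6 times in the day 5 library at 0 μM and at 0 in all treated libraries. Itgad and Itgax had at most 9 counts in any library and Itgb2l 4, and none of these 4 was tested against 0 μM.

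Across all tested members, 8 had every treated library above both at 0 μM, 10 had every one below, and 15 overlapped. The same held for 30% of all genes tested (above) and 22.1% (below).

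Levels between genes can be compared per length, as shares of the summed FPKM of a class. At 0 μM 5 alpha chains held similar shares of the alpha sum: Itga11 21.9%, Itga5 19.9%, Itga3 19.4%, Itgav 18.0% and Itga10 17.0% (means of both libraries). In treated cells Itga10 held 55.5 ± 1.15% (SD, n = 6), with a range of 53.5 to 56.9%. Itga11 then held 11.2 ± 1.02%, Itga5 11.2 ± 0.729%, Itgav 7.88 ± 0.693% and Itga3 6.45 ± 1.18%. Itga8 went from 0.651% to 4.41 ± 1.27%. The alpha sum was 179 and 189.6 FPKM at 0 μM and 252 to 293 FPKM in treated cells. The share of Itga10 was 39.5% in untreated A-5 and 66.6% in B-4.

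The beta sum was 355 and 368 FPKM at 0 μM and 299 to 342 FPKM in treated cells. Itgb1 held 63.0 and 63.5% of it at 0 μM and 71.9 to 81.0% in treated cells, while Itgb5 held 35.0 and 34.6% and then 17.9 to 26.8%. In A-5 the shares of Itgb1 and Itgb5 were 61.3% and 35.6%, and in B-4 68.9% and 29.3%.

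**Figure D3:**
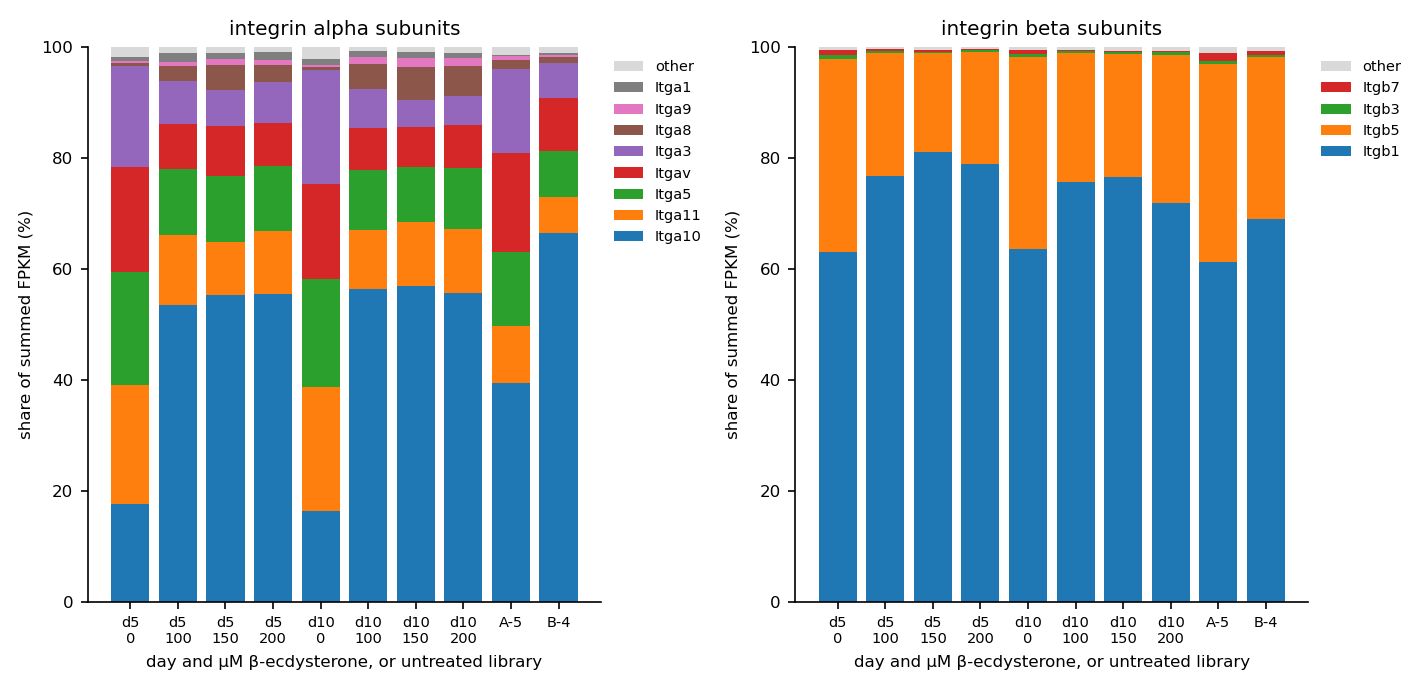
Share of the summed FPKM of integrin alpha (left) and beta (right) chains held by each chain (y axis, percent) in each library (x axis, day and μM, then untreated). Itga10 holds 16.4 to 17.6% of the alpha sum at 0 μM and 53.5 to 56.9% in treated cells.

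Among the laminin chains, 2 scarce ones were called higher and the abundant ones were level or lower. Lama2, the laminin alpha chain of muscle basement membrane, stood at 0.326 and 0.309 CPM at 0 μM. It was 2.11, 3.72 and 2.43 CPM on day 5 and 3.197, 5.93 and 5.31 CPM on day 10 at 100, 150 and 200 μM, all above both at 0 μM (log2 fold change 3.41 ± 0.42 SE, edgeR adjusted p = 1.7e-04). Lamc3, a gamma chain, stood at 0.134 and 0.185 CPM at 0 μM and at 0.804, 1.04 and 0.632 CPM on day 5 and 0.879, 2.81 and 1.87 CPM on day 10 (log2 fold change 2.91 ± 0.55 SE, edgeR adjusted p = 0.0022). Both were counted few times at 0 μM, 17 and 10 for Lama2 and 7 and 6 for Lamc3. Among treated libraries both were higher in the deeper ones, 1.93 times for Lama2 and 2.47 times for Lamc3, and both were still called with depth class as a covariate. The summed muscle markers stood at 2.13 and 2.44 CPM at 0 μM and 5.36 to 9.85 CPM in treated cells beside Lama2, and their part in it was not tested. Both overlap antisense genes (631 and 382 exonic bases).

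The chains that make up most laminin here were Lama4, Lamb1, Lamb2 and Lamc1. Lama4, the alpha chain of vessel and mesenchymal basement membrane, held 98.9 and 99.3% of the laminin alpha sum at 0 μM and 97.1 to 98.6% in treated cells. It stood at 32.8 and 40.3 FPKM at 0 μM and 28.3 to 34.8 FPKM in treated cells and was not called (log2 fold change -0.18, adjusted p = 0.204). The untreated libraries held only 10.3 and 10.4 FPKM.

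Lamc1, the gamma chain of most laminins, was 53.4 and 56.6 FPKM at 0 μM and 26.8 to 32.2 FPKM in treated cells, with no overlap (log2 fold change -0.85 ± 0.09 SE, edgeR adjusted p = 5.7e-05). Lamb1 was 54.9 and 54.6 FPKM at 0 μM and 32.9 to 40.0 FPKM in treated cells (log2 fold change -0.53 ± 0.10 SE, edgeR adjusted p = 0.0018). It was also low in untreated cells, at 33.5 and 27.4 FPKM, and against those its log2 fold change turned to 0.30 (adjusted p = 0.107). Lamb2 was 38.3 and 42.1 FPKM at 0 μM and 35.7 to 49.8 FPKM in treated cells, with overlap (log2 fold change 0.08, adjusted p = 0.674). Its share of the laminin beta sum was 41.1 and 43.5% at 0 μM and 48.6 to 57.3% in treated cells. Lama1, Lama3, Lama5 and Lamb3 were at means under 2.1 CPM in both groups and were not called.

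**Figure D4:**
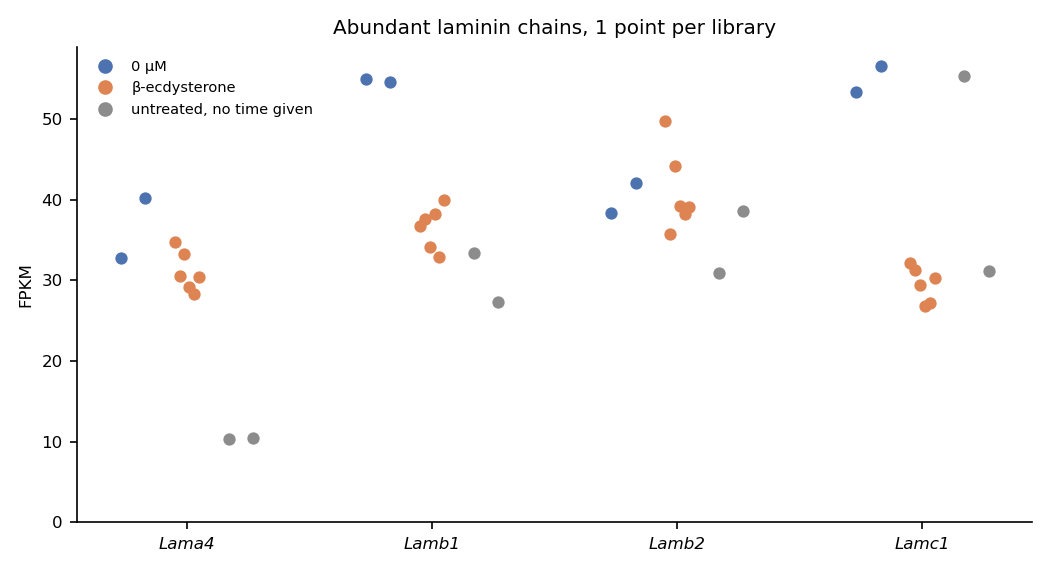
FPKM (y axis, from 0) of the 4 abundant laminin chains, with 1 point per library; blue is 0 μM, orange treated and grey untreated. Lamc1 and Lamb1 are lower in all treated libraries than at 0 μM, Lamb2 overlaps, and Lama4 is low in the untreated libraries.

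Genes around these receptors were described by lists. The shares over all genes, 13.4% called higher and 5.98% lower (22.6% and 20.8% at any fold), apply to each. Of 27 tested integrin ligands 7 were called higher and 4 lower, with a median log2 fold change of 0.01; at an adjusted p under 0.05 and any fold, 9 were higher and 10 lower. The largest rises were Ibsp (8.61, bone sialoprotein), Npnt (6.39, nephronectin) and Postn (4.90, periostin), and the largest falls Dmp1 (-2.10), Thbs2 (-1.25) and Ctgf (-1.15). Of 21 tested basement membrane partners and other laminin receptors 4 were called higher and 0 lower, at a median of 0.30, led by Col15a1 (5.34), Col4a3 (2.61) and Smoc1 (2.21). The value of Col4a3 rests on few counts, 5 and 0 at 0 μM and 11 to 22 in treated libraries. At an adjusted p under 0.05 and any fold, 9 genes of this list were higher and 1 lower. Of 31 tested adaptors and focal adhesion genes 1 was higher, Tns1 (5.69, a tensin that ties integrin tails to actin), and 1 was lower, Zyx (-1.21, zyxin), at a median of -0.15. At an adjusted p under 0.05 and any fold, 4 of these genes were higher and 9 lower.

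Itga8 and Itga9 each had a known ligand whose gene rose in the same libraries, while other genes of the ligand list fell. Npnt, the ligand of the chain encoded by Itga8, was 6.35 and 7.36 CPM at 0 μM, 236, 642 and 479 CPM on day 5 and 706, 867 and 841 CPM on day 10 at 100, 150 and 200 μM (edgeR adjusted p = 6.4e-06). Tnc, encoding tenascin-C, a ligand of the chain encoded by Itga9, was 29.7 and 30.6 CPM at 0 μM, 351, 684 and 551 CPM on day 5 and 1027, 1440.4 and 1236 CPM on day 10 (log2 fold change 4.63, edgeR adjusted p = 1.8e-05). Vcam1, another ligand of that chain, was lower (log2 fold change -1.10, edgeR adjusted p = 1.2e-05). Spp1, also in the ligand list, was lower within the fold limit (-0.56, edgeR adjusted p = 0.032). Of the collagen genes in that list, Col3a1 was higher (1.76, edgeR adjusted p = 3.5e-05). Col1a1 (0.01), Col1a2 (0.09) and Col5a1 (-0.38) were not called (edgeR adjusted p = 0.977, 0.711 and 0.071). In the untreated libraries Npnt stood at 7.99 and 16.9 CPM and Tnc at 3.30 and 21.5 CPM. Npnt was among the 3 largest rises of the ligand list. The other ligand genes given here were chosen after their values were seen. No relation between receptor and ligand levels was tested.

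**Figure D5:**
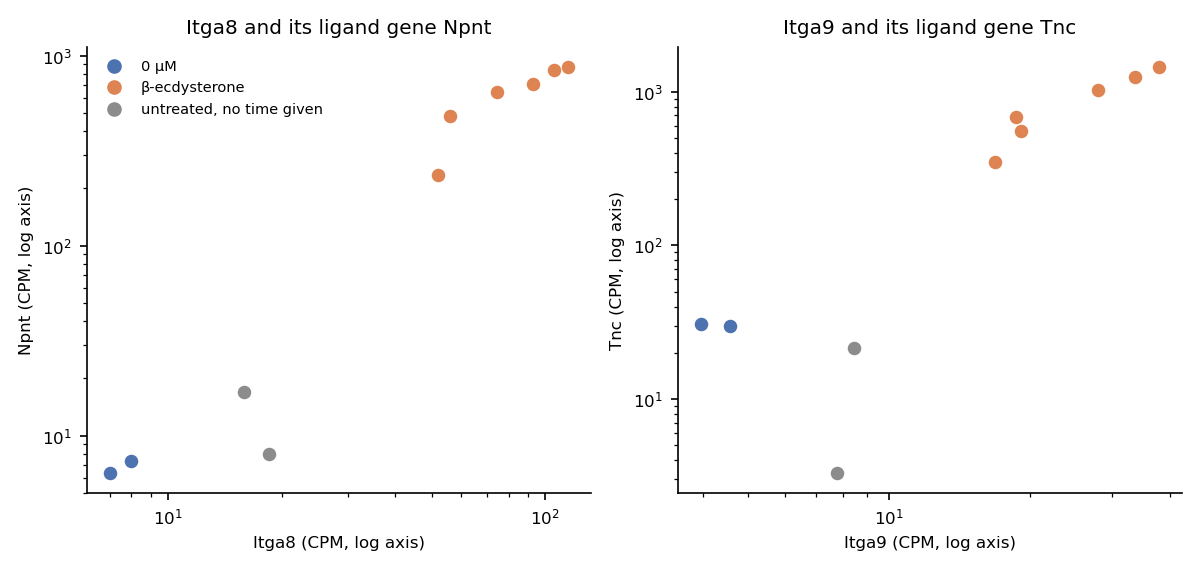
CPM of a ligand gene (y axis, log) against CPM of its receptor chain (x axis, log), with 1 point per library: Npnt against Itga8 (left) and Tnc against Itga9 (right); blue is 0 μM, orange treated and grey untreated. The treated libraries lie apart from the others on both axes, at 51.9 CPM or more of Itga8 and 16.8 CPM or more of Itga9. These ligand genes were picked with their values known. Vcam1, another ligand of the chain encoded by Itga9, was lower and is not plotted.

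To see whether members differed between days in treated cells, the 3 libraries of day 10 were compared with the 3 of day 5. None of the 32 members tested was called by edgeR, where 0.905% of all genes were called higher and 0.144% lower (1.05% in either direction). An unadjusted p under 0.05 was found for 9 members in edgeR. The share of all genes under that limit was not worked out, so this count cannot be read as an excess. DESeq2 called 1 member (Itga2). With dose as a factor, which pairs the libraries of a dose across days, edgeR called 1 (Itgb8). The smallest p belonged to Itga9 (log2 fold change 0.86 ± 0.13 SE, adjusted p = 0.013) and Itga8 (0.78 ± 0.14 SE, adjusted p = 0.024), both higher on day 10 but inside the fold limit of 1. All 3 day 10 libraries exceeded all 3 of day 5 for both genes. Depth also differed, since 2 of the 3 day 10 libraries and 1 of the 3 on day 5 were above 40000000 counts. The shallower library of day 10 was above the deep one of day 5, at 92.7 against 74.4 CPM for Itga8 and 27.98 against 18.7 CPM for Itga9. Itgb4 followed at 0.90 (adjusted p = 0.051). Without the 150 μM library of day 5, Itga2 and Itgb8 were called higher.

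A trend with dose was tested over 100, 150 and 200 μM within treated cells, with day as a covariate. None of 33 members was called by edgeR or by DESeq2, and 0 had an unadjusted p under 0.05; over all genes 0.006% were called higher and 0% lower. Depth and dose were partly tied, since both 100 μM libraries were shallow and both 150 μM libraries deep, and the effects of these cannot be fully told apart.

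Whether the difference from 0 μM changed between days was tested as the day 10 effect minus the day 5 effect. Of 34 members tested 0 were called by edgeR or DESeq2 (0% of all genes called higher and 0.0112% lower). An unadjusted p under 0.05 was found for 5 in edgeR. Here too the share of all genes was not worked out, and the count cannot be read as an excess. The smallest p belonged to Itgb4 (difference 1.64 on the log2 scale, adjusted p = 0.415), Itga9 (1.08, adjusted p = 0.423) and Itga1 (-1.19, adjusted p = 0.501). With 1 library at 0 μM per day, its own error enters each value in full. For Itga1, the treated libraries were above their day's 0 μM library by 1.30 to 2.10 on the log2 scale on day 5 and by 0.41 to 0.70 on day 10.

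The untreated libraries placed the members in different orders. B-4 lay inside the treated range for members that included Itga10, Itga6, Itgb3, Itgav, Itga3 and Lamc1. Its values were 874, 0.429, 7.38, 173, 80.5 and 251 CPM, where A-5 had 362, 1.36, 12.2, 229, 132 and 417 CPM. Both untreated libraries lay outside the treated range, on the side of 0 μM, for members that included Itga8, Itga9, Itgb5, Itgb7, Lama2 and Lamc3. Both were below every other library for Lama4, Itga11, Itga5 and Itga1. With no time on their labels and 1 library each, these were given as values.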

How the data were processed

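The authors deposited 1 table of read counts per gene, without normalization, and FPKM values per gene for 10 libraries, over 22036 Ensembl genes and 7547 newly assembled loci. The submitters' processing notes name HISAT2 2.0.4 and GATK 3.2-2, with no role; the genome build, annotation and strand setting are not given in the sources used here. The table also holds the authors' own comparisons and annotation terms, which were not used. Counts were tested with edgeR 4.0.16 (TMM, filterByExpr, quasi-likelihood test), DESeq2 1.42.0 and limma 3.58.1 under R 4.3.3; tables were made with Python 3.11.15, pandas 2.3.3 and numpy 2.4.6. CPM used TMM factors over 10 libraries, and each test those of its own libraries. The standard error was the log2 fold change over the root of F, and differences between single libraries used a prior count of 2. The method was tested on simulated data. The result for 1 member is not reported here, though counts over all members include it.

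The members, gene lists and tests were chosen with earlier results of these data known. Full statistics are given for called members and for Itgb1, Itgav, Lamb1 and Lamc1, by rule, and values for the others. Outside that rule they are also given for Itga3 and Itgb5, which were lower within the fold limit. Genes of other lists were named among the 3 largest called changes in each direction or where the members' text needed them. The latter were Tnc, Vcam1, Spp1, Col1a1, Col1a2, Col3a1, Col5a1, Gm42957, Sox9 and markers not called, chosen after their values were seen. Settings tried instead were DESeq2, its size factors, no TMM, other filters, Ensembl genes only, no day covariate, dose as a factor, no fold limit, glmTreat, limma on log2(FPKM + 1), the 2 untreated libraries as controls, alone or with 0 μM, and leaving out every library once; depth class (above 40000000 counts) as a covariate was added after seeing the data. Gene positions came from GENCODE M21 (GRCm38) by Ensembl identifier, and promoters from RefSeq by symbol. Depth per library is given with the levels, and precision at low levels is set by counting.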

Additional observations from a re-analysis of the deposited data

Results flagged for a closer look

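Among treated libraries, 1 of the 33 members tested had a library apart from the rest: Itgb1 in the 100 μM library of day 10, where the gap to the next library was 0.661 of the whole range. Chance flags about 1 in 20 such groups. The untreated libraries, which entered no main comparison, held more than 2 times the CPM of the higher 0 μM library for several members. Itga10 was 2.13 times as high in A-5 and 5.14 times in B-4. Itga8 was 2.32 times as high in A-5, Itgb2 2.18 times and Itgb4 2.38 times. Itgae was 2.65 times as high in A-5 and 3.07 times in B-4. Lama2 was 2.63 times and Lamc3 2.49 times as high in B-4, both on few counts (26 and 14).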

How the results depend on the processing

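Against 0 μM, 6 members were called higher and 3 lower. Limma on log2(FPKM + 1) gave 3 higher (Itga10, Itga8 and Itga9) and 1 lower (Itgb7), where the added 1 shrinks the change of scarce genes, and no fold limit gave 9 lower; leaving out each library in turn gave 5 to 7 higher and 3 to 4 lower. Itga8, Itga9 and Itgb7 were called under all 21 alternatives. With untreated instead of 0 μM libraries, Lamb1 turned to 0.30, and Itga10 (0.51), Itgb3 (-0.46), Itga6 (-0.10) and Lamc3 (1.75, adjusted p = 0.09) were not called. Itga11, Lama1 and Lama4 were then called higher and Itgb2 lower. Of members lower within the fold limit, Itga3 (-0.12, edgeR adjusted p = 0.757), Itgav (-0.24, adjusted p = 0.164) and Lamc1 (-0.44, adjusted p = 0.086) then missed the p limit. Itgb5 passed it (-0.64, edgeR adjusted p = 0.033). With the untreated libraries added to 0 μM, Itga10, Itgb3 (-0.83) and Itga6 (-1.32) were not called and Itgb2 was called lower. Itga1 was also lost when either the 0 μM or the 100 μM library of day 5 was left out (0.52 and 0.96), with library totals (0.99), by glmTreat (adjusted p = 0.871) and by limma (0.72), and Itgb3 by glmTreat (adjusted p = 0.392). Newly called higher were Lamb3 (with depth class, and without the 0 μM library of day 10), Itgb4 (without that of day 5) and Lama1 (without the 200 μM library of day 5), and Itga3 was called lower with library totals and in 3 fits that left out a library. The cause was not tested. Over all genes the alternatives called 526 to 3790 higher and 428 to 3490 lower.

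For day 10 against day 5, 0 members were called higher; DESeq2 gave 1 (Itga2), no filter beyond 1 count in total gave 1 (Itga2), dose as a factor gave 1 (Itgb8) and no fold limit gave 2 (Itga8 and Itga9). Leaving out each library gave 0 to 2, with Itga2 and Itgb8 called without the 150 μM library of day 5. Over all genes the alternatives called 18 to 333 higher and 0 to 115 lower. No member was called for dose or for a difference between days under any alternative run, while over all genes up to 49 and 59 were called for dose and up to 77 and 23 for the difference, higher and lower. The 0 μM libraries could not be left out of the difference between days. The labels give no replicate numbers that pair samples; dose pairs the libraries of days 5 and 10, and the fit with dose as a factor is that paired fit. Levels under about 1 CPM rest on few counts.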
